A study of Arabidopsis thaliana with 6 samples.

Results

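TBL31 (AT1G73140), TBL33 (AT2G40320), TBL34 (AT2G38320), TBL36 (AT3G54260) and TBL45 (AT2G30010) are 5 of the TRICHOME BIREFRINGENCE-LIKE (TBL) genes of Arabidopsis thaliana. They were chosen by their symbol in the array's annotation and by their difference between induced and uninduced arrays, so that difference is given below as a description, without a test. The array annotation gave each of the 5 genes 1 probe, among 16550 genes that have a probe of their own. 18 other TBL symbols had such a probe and are set beside them.

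TBL proteins are membrane proteins of the Golgi apparatus, and the characterised members transfer acetyl groups onto polysaccharides that are then secreted to the cell wall. On xylan, the main hemicellulose of the secondary walls of vessels and fibres, acetyl groups sit on the xylose units of the backbone, and their number and spacing affect how xylan packs against cellulose. TBL33 and TBL34 belong to the xylan acetyltransferases, as does TBL31. Plants that lack several of these enzymes have weak, collapsed xylem vessels.

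The RNA came from suspension-cultured cells, all of them transformed with VND1-GFP under estrogen-inducible control. VND1 is a NAC transcription factor of the group that switches on vessel element differentiation. In the induced group (3 arrays) the cells received estrogen at 5 µM, and RNA was taken after 24 h. The uninduced group (3 arrays) had the same 24 h without estrogen, and both were shaken in the dark at 23 °C and 124 rpm. No array holds untransformed cells with estrogen, so effects of the transcription factor and of the inducer cannot be told apart. The labels name no promoter and no separate cultures or clones, so any spread between the 3 samples of a group may be technical.

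By the array numbers in the titles, replicate 1 of either group belongs to a run of 2 arrays, and the other 4 arrays form a second run. The median of all 38408 probes lay at 6.08 and 6.15 in the run of 2 and between 5.41 and 5.55 in the run of 4, on the deposited log2 scale. Of the marker lists for cell types, which were chosen with earlier results of these data known, 3 of 7 vessel element genes were measured. All 3 rose (1.12 to 4.18 on the log2 scale, limma, adjusted p under 0.05), against 0.534% of all probes called higher. With 1 array left out the calls of these 3 genes were lost for 5 or all 6 of the arrays (limma, adjusted p up to 0.213 to 0.294). 2 of 5 procambium, 1 of 5 phloem and 1 of 4 photosynthesis genes were measured, and their changes lay between -0.14 and 0.20 with no call in either direction. Summed over the 3 vessel genes, the log2 values lay between 21.2 and 22.5 on the induced arrays and between 12.6 and 15.4 on the uninduced ones. The RNA is from bulk cultures, so fewer responding cells and less RNA per cell cannot be told apart.

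TBL33, which acts on the 3-position of xylose units in xylan, gave the largest difference of the 5 genes. Its signal was 9.23, 9.22 and 9.12 in induced replicates 1 to 3 and 4.69, 3.90 and 3.85 in uninduced replicates 1 to 3. All induced arrays stood far above all uninduced ones, with a gap of 4.43 between the nearest arrays of the groups. The induced arrays lay close together (mean 9.19 ± 0.06, SD, n = 3), whereas the uninduced mean of 4.15 ± 0.47 (SD, n = 3) was spread by the higher value of replicate 1. The log2 difference was 5.04 ± 0.26 (SE), a 33.0-fold higher signal, and 22 of the 38408 probes had a larger positive difference.

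TBL34, which adds single acetyl groups to the 2- or 3-position of xylose units, followed. Its signal was 8.76, 8.57 and 8.65 in induced replicates 1 to 3 and 6.08, 5.09 and 5.19 in the uninduced ones. The groups were again apart, by 2.49 between their nearest arrays, and again uninduced replicate 1 was the highest of its group. The means were 8.66 ± 0.10 and 5.45 ± 0.55 (SD, n = 3 each), a log2 difference of 3.21 ± 0.29 (SE) and a 9.25-fold higher signal in induced cells.

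TBL31, a further xylan acetyltransferase, had signals of 6.70, 6.75 and 7.18 in induced replicates 1 to 3. In uninduced replicates 1 to 3 its signals were 5.21, 4.08 and 3.87. The groups did not overlap, but the nearest arrays, both of the run of 2, were only 1.49 apart. The means of 6.88 ± 0.27 and 4.39 ± 0.72 (SD, n = 3 each) gave a log2 difference of 2.49 ± 0.39 (SE), which is 5.62-fold.

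TBL45 differed by less, and its enzymatic role is not described here. It had signals of 5.09, 4.36 and 4.80 in induced replicates 1 to 3 and of 4.15, 3.76 and 3.41 in the uninduced ones. The induced arrays were the higher ones, by 0.21 between the nearest arrays of the groups, a gap smaller than the SD within either group. The means of 4.75 ± 0.36 and 3.77 ± 0.37 (SD, n = 3 each) gave a log2 difference of 0.98 ± 0.28 (SE), or 1.97-fold.

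TBL36 was the 1 gene of the 5 with a lower signal in induced cells. It read 6.76, 6.43 and 6.35 in induced replicates 1 to 3 and 7.50, 7.12 and 7.18 in uninduced replicates 1 to 3. Within each run the induced arrays were lower, and over all arrays the groups were 0.36 apart. The means of 6.51 ± 0.21 and 7.26 ± 0.20 (SD, n = 3 each) gave a log2 difference of -0.75 ± 0.18 (SE), a 1.68-fold lower signal. Of all probes, 726 had a more negative difference.

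**Figure D1:**
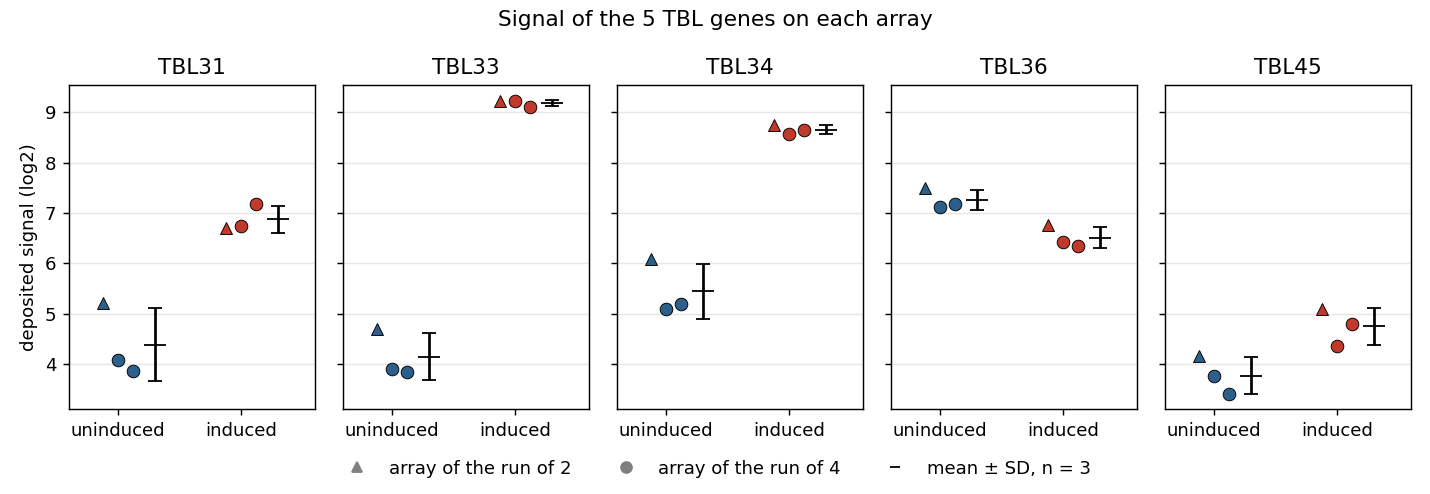
Deposited log2 signal of the 5 TBL genes on each of the 6 arrays, with triangles for the run of 2 arrays, circles for the run of 4, and the mean ± SD (n = 3) of each group beside the points. TBL33, TBL34 and TBL31 show wide gaps between the groups, of 4.43, 2.49 and 1.49, while those of TBL36 and TBL45 are 0.36 and 0.21.

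Over all probes limma called 205 higher in induced cells, which is 0.534%, and none lower (0%; Benjamini-Hochberg adjusted p under 0.05), while without adjustment 1151 were higher and 1053 lower (p under 0.05). All 3 induced arrays lay above or below all 3 uninduced arrays for 13.5% of the probes. All 5 TBL genes had such separation, 4 upward and 1 downward. Since the genes were chosen on this contrast, nothing is read from their count. The median difference was 2.49 over the 5 genes and -0.02 over all probes. In the annotation 20927 of the probes had no gene and 759 had several. Shares and medians over all probes are therefore not those over genes.

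**Figure D2:**
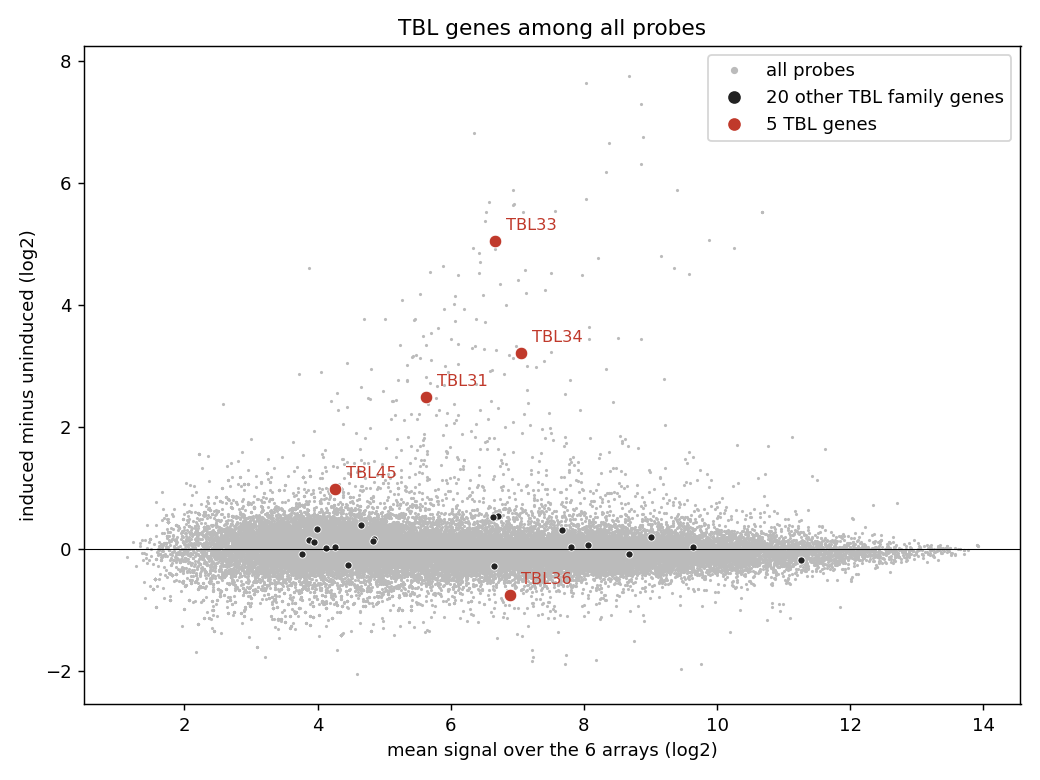
Induced minus uninduced signal (log2) against the mean signal over the 6 arrays (log2) for all 38408 probes in grey, the 20 other measured TBL family genes in black and the 5 TBL genes in red. TBL33, TBL34 and TBL31 lie above the main cloud of probes, and TBL45 and TBL36 lie nearer to it at 0.98 and -0.75.

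The uninduced signals of TBL31, TBL33 and TBL45 lay in the lower part of their arrays, and that of TBL34 near the array median. TBL33 lay 1.38 to 1.57 above the 5th percentile of the probes on each uninduced array and TBL31 1.40 to 2.09 above it. For TBL45 this distance was 0.94 to 1.33, and for TBL34 it was 2.66 to 2.96. TBL36 differed in starting from a signal 1.42 to 1.64 above the array median, and it remained 0.60 to 1.02 above the median on the induced arrays. No background signal was estimated, so where an uninduced signal was background the fold given above is a lower bound.

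The run of arrays was not used to choose the genes and could be tested. Between the runs, with group in the same model, 37.4% of all probes differed (limma, adjusted p under 0.05), nearly all of them lower in the run of 4. Of the 5 genes TBL36 passed that test (-0.36 ± 0.08, SE, adjusted p = 0.0296), but its sign turned when each array was centred on its median (0.28) or quantile-normalized (0.018). The other 4 genes gave run differences between -0.55 and -0.44 with adjusted p from 0.0681 to 0.343, close to the median of -0.42 over all probes. After centring they lay between 0.09 and 0.20.

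On the deposited scale the size of the induced difference also varied with the run. The run of 2 holds only 1 array per group, so its differences have no replication. The SE of a difference between runs thus rests on the spread within the run of 4 and on limma's moderation. In the run of 2 it was 4.54 for TBL33, 2.68 for TBL34 and 1.49 for TBL31, against 5.29, 3.47 and 2.99 in the run of 4. For all 3 genes the deposited signal of uninduced replicate 1 was higher than on the other uninduced arrays, whereas the induced arrays were within 0.48 of each other. Relative to the array median, uninduced replicate 1 was still the highest of its group, and induced replicate 1 was the lowest of its group. In induced replicates 1 to 3 TBL33 then stood at 3.08, 3.81 and 3.65. TBL34 stood at 2.61, 3.16 and 3.19 there, and TBL31 at 0.55, 1.34 and 1.71. TBL36 and TBL45 differed little between runs, at -0.74 and 0.93 in the run of 2, whereas in the run of 4 TBL36 gave -0.76 and TBL45 lay 0.07 above its value in the run of 2. In a limma model with a term for the difference between runs, that difference was 1.51 ± 0.35 (SE) for TBL31, 0.75 ± 0.18 for TBL33 and 0.80 ± 0.18 for TBL34, each with an adjusted p of 0.766. Over all probes none passed that test (0%), and 2373 (6.18%) had an unadjusted p under 0.05, among them these 3 genes. The size of this difference between runs depended on the scaling of the arrays. After quantile normalization it was 1.18 for TBL31, 0.09 for TBL33 and 0.39 for TBL34. After median centring it was 1.65, 0.90 and 0.94 for the same genes. Low signals differed most between the runs, with a median run difference of -0.83 over the 25% of probes of lowest mean signal and -0.15 over the 25% of highest. Its part in the smaller differences of the run of 2 was not tested.

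**Figure D3:**
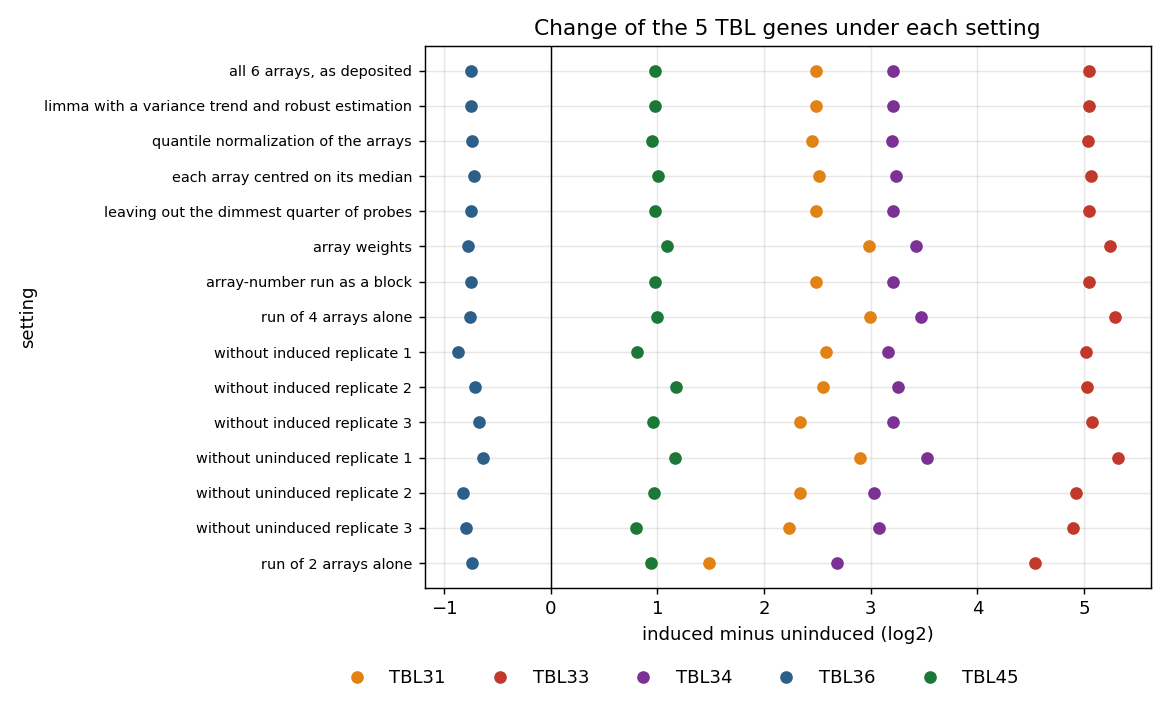
Induced minus uninduced signal (log2) of the 5 TBL genes on all 6 arrays as deposited and under 14 other settings, including each array left out and each run alone. The lowest values of TBL31, TBL33 and TBL34, at 1.49, 4.54 and 2.68, are those of the run of 2 arrays.

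The other measured TBL genes are those left once the 5 had been chosen by their difference, so smaller values among them follow from that choice. None of the 18 was called higher or lower by limma, against 0.534% called higher over all probes. 1 of them, TBL24, had an unadjusted p under 0.05, against 5.74% of all probes. 14 were positive and 4 negative, with a median of 0.09 and a range of -0.29 to 0.51, against -0.02 over all probes. The groups lay fully apart for 3 of the 18, namely TBL24 and TBL18 upward and TBL25 downward, compared with the 13.5% of all probes. Among the 18, the values next to those of the 5 were those of TBL24 on the positive side and TBL25 on the negative side. With the run as a block none of the 18 was called either.

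Among these 18 are TBL28, TBL30 and TBL32, which belong to the same xylan-acetylating branch of the family as TBL31, TBL33 and TBL34. TBL32, which acts together with TBL33 in the plant, had signals of 9.88, 9.57 and 9.54 in induced replicates 1 to 3 and of 9.71, 9.61 and 9.57 in the uninduced ones. Its groups overlapped, and its log2 difference was 0.03 ± 0.15 (SE). TBL28 gave 0.13 ± 0.32 and TBL30 0.02 ± 0.60, where the large SE of TBL30 comes with signals of 5.42 and 5.04 in the run of 2 and 3.64 to 3.90 in the run of 4. TBL35, the close relative of TBL34, shares its probe with BRCA2B and was not used.

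TBL23, TBL24, TBL25 and TBL26 acetylate mannan, another hemicellulose. None of the 4 passed the test. TBL24 read 7.05, 6.81 and 6.81 in induced replicates 1 to 3 and 6.32, 6.51 and 6.30 in uninduced ones, so that its groups were apart by 0.30. Its difference was 0.51 ± 0.14 (SE, limma, adjusted p = 0.599). TBL25 gave -0.29 ± 0.13 (adjusted p = 0.923), TBL23 0.17 ± 0.14 and TBL26 0.07 ± 0.18, and for the last 2 the groups overlapped.

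Of the remaining TBL symbols TBL42 gave 0.38 ± 0.31, TBL15 0.32 ± 0.65 and TBL18 0.30 ± 0.15 (SE) on the log2 scale. TBL38 gave -0.27 ± 0.35 and TBL39 -0.18 ± 0.15. TBL16, TBL19, TBL20, TBL37, TBL41 and TBL43 lay between -0.08 and 0.20. None of these passed the test. 2 further family genes are measured under their locus identifiers, AT2G31110 (TBL40) and AT5G06700 (TRICHOME BIREFRINGENCE, which gave the family its name and is needed for the crystalline cellulose of trichome walls). AT2G31110 gave 0.53 ± 0.20 (adjusted p = 0.825), and AT5G06700 gave -0.09 ± 0.12 from an uninduced mean of 8.72 ± 0.09 (SD, n = 3). Of the 46 family genes in the gene table, 25 were measured in all.

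**Figure D4:**
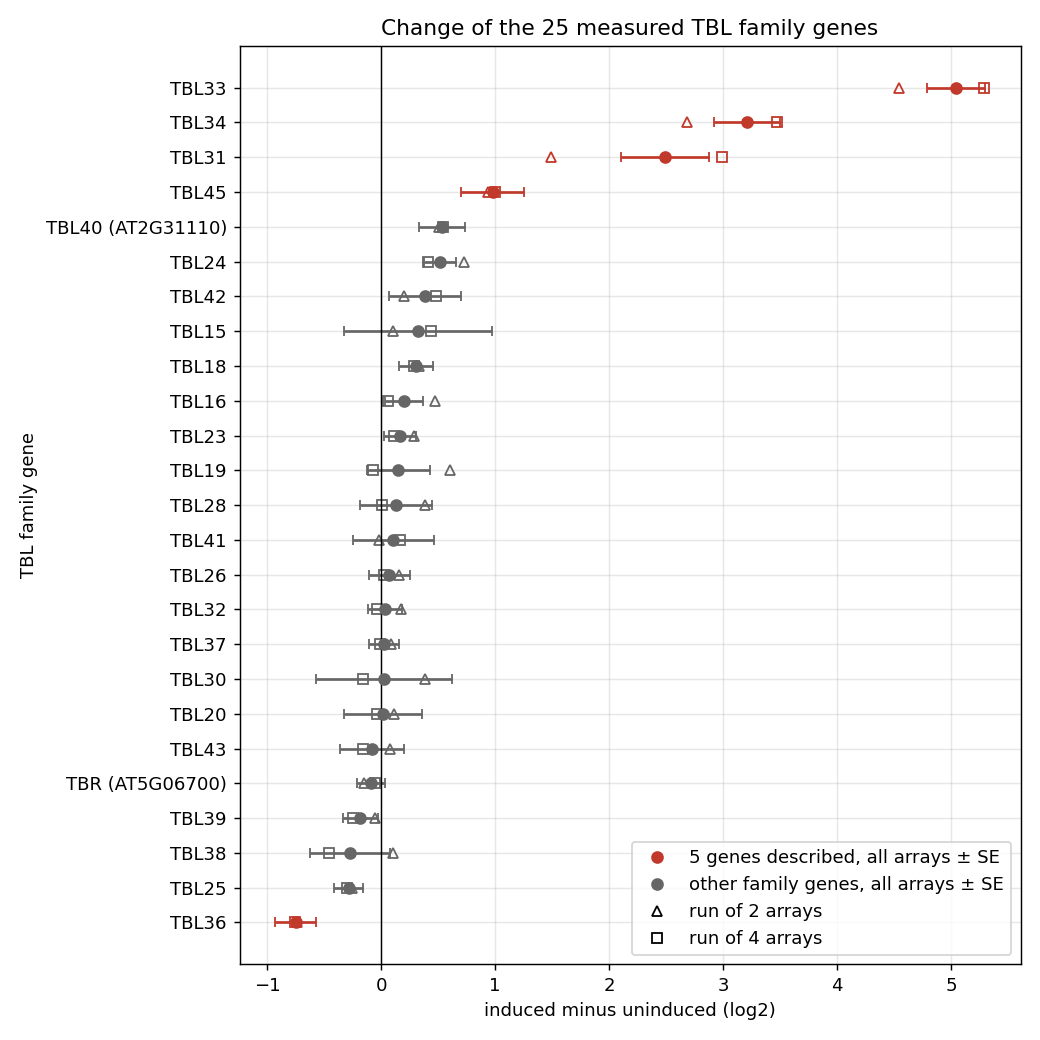
Induced minus uninduced signal (log2) of the 25 measured TBL family genes, with filled circles and bars for all 6 arrays ± SE, open triangles for the run of 2 and open squares for the run of 4. The 20 other genes, in grey, lie between -0.29 and 0.53, and the 5 genes in red, which were chosen by this difference, between -0.75 and 5.04.

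For the pathway that builds the acetylated polymer, 7 of 27 xylan synthesis genes other than TBL genes were measured. 3 of them rose and none fell (limma, adjusted p under 0.05), against 0.534% and 0% of all probes. The list was chosen with earlier results of these data known, so these counts describe it and are not an independent test. Without adjustment 4 were higher and 0 lower (limma, p under 0.05), against 1151 and 1053 of all 38408 probes. GUT2 (IRX10), a xylan xylosyltransferase, and IRX15-L, needed for normal xylan chain length, are 2 of the 3 that rose (2.78 ± 0.16 and 2.87 ± 0.30, SE). The third was AT2G28315, named by its locus alone in the annotation, at 4.51 ± 0.16 (SE, limma, adjusted p = 6.2e-04). Its signal was 11.96, 11.75 and 11.78 in induced replicates 1 to 3 and 7.47, 7.39 and 7.10 in the uninduced ones, with the groups far apart. With the run as a block, where 0.992% of all probes were higher, the count was 3 as well. IRX15-L no longer passed when only the run of 4 was used (adjusted p = 0.0753) or when any array other than uninduced replicate 1 was left out (adjusted p 0.104 to 0.180). AT1G06890 and AT2G30460, on the same list, gave 0.13 ± 0.13 and 0.21 ± 0.26, and GUT1 gave -0.12 ± 0.13. IRX15, the paralogue of IRX15-L, gave 2.66 ± 0.52 (SE, limma, adjusted p = 0.255) with its groups 1.35 apart. It passed with median centring (adjusted p = 0.0294), with array weights (0.0074), in the run of 4 alone (0.041) and without uninduced replicate 1 (0.0114), and its adjusted p was up to 0.855 with another array left out. The median over the 7 genes was 2.66 (1.35 in the run of 2 and 2.83 in the run of 4).

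Of 5 other wall acetylation genes listed by identifier, 1 was measured, AT3G03210. Its signal was 6.74, 6.23 and 6.43 in induced replicates 1 to 3 and 6.16, 5.71 and 5.81 in the uninduced ones. The groups were apart by 0.07, and the difference of 0.57 ± 0.20 (SE, limma, adjusted p = 0.779) did not pass the test.

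Likeness of pattern was measured as the Euclidean distance between the 6 values of 2 genes, each centred on its own mean, over 16549 other genes. These values hold the difference between the groups, so the nearest genes have a similar difference by construction. Nothing is read from that agreement. TBL33 was nearest to AT1G71695 (distance 0.43, difference 4.91), AT1G23460 (0.53, difference 4.76) and AT3G27200 (0.69, difference 4.93). TBL34 was nearest to AT4G27435 (0.39), AT5G19870 (0.47) and AT5G14510 (0.53), which differed by 3.36, 2.90 and 3.02. TBL31 was nearest to AT5G07080 (0.49), the xylan gene IRX15 (0.57) and AT1G58070 (0.58). The 3 genes nearest to TBL31 differed by 2.43, 2.66 and 2.19.

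TBL36 lay closest to AT3G23860 (distance 0.14), RALFL20 (0.21) and AT3G61340 (0.25), with differences of -0.69, -0.64 and -0.66. TBL45 lay closest to AT1G67520 (0.13), AT1G30050 (0.25) and AT4G39610 (0.27), with differences of 0.94, 0.84 and 0.78. Among the 5 genes themselves TBL31 and TBL34 were the closest pair, at a distance of 1.03, and TBL33 and TBL36 the farthest, at 7.11. Genes of small difference have small distances to many others, so distances of different genes are not on an equal footing.

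The genes next to the 5 on the chromosomes were looked up as well. TBL33 lies on chromosome 2 with 18 protein-coding genes between it and TBL30, which itself is the direct neighbour of TBL28. Of the 30 protein-coding genes that are the 3 nearest on either side of each of the 5, 18 were measured. None of the 18 was called by limma (lowest adjusted p = 0.651), against 0.534% called over all probes. 1 of them, DREB2C near TBL33, had an unadjusted p under 0.05, against 5.74% of all probes, with the most negative difference of -0.81 ± 0.24 (SE). The highest was 0.46, and 10 were positive and 8 negative.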

How the data were processed

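Each array's deposited table gives log2 signals, 1 for each probe. Per the submitters' processing notes, the authors used Affymetrix Expression Console 1.3. The log base was read from the range of 0.30 to 14.05, and the sources used here do not give the summarisation, the background correction or any joint normalization. They were used as deposited. Groups follow the stimulation in the labels, and replicate numbers only name arrays in deposition order.

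Probes with 1 gene in the array's annotation were named and updated through a RefSeq gene table (TAIR10.1). 3 probes shared with other genes hold TBL21 or TBL35 and were not used. No sequence is shown.

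Comparisons used limma 3.58.1 under R 4.3.3 (lmFit, then eBayes with default moderation) over all 38408 probes, with Benjamini-Hochberg adjustment and an adjusted p under 0.05 as threshold. Second models added the run and its interaction with the group. The scripts were tested on simulated data. The number of arrays limits the precision.

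The 5 genes, the lists and the tests were chosen with earlier results of these data known. The text names the 5 genes, measured TBL genes with the largest changes or a known substrate, the measured pathway genes, and the 3 genes nearest in pattern to each of the 5. The grouping by substrate and the chromosome neighbours were added after the values were seen. Alternatives tried were robust moderation with a variance trend, quantile normalization, median centring, leaving out the 25% dimmest probes, array weights, the run as a block, each array left out and other thresholds. The run of 4 alone was added for the counts after the data were seen.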

Additional observations from a re-analysis of the deposited data

How the results depend on the processing

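The groups do not overlap for the 5 TBL genes, which fixes their direction when arrays are left out or a run is taken alone. With 1 array left out the difference ranged from 2.23 to 2.90 for TBL31, 4.89 to 5.31 for TBL33, 3.03 to 3.52 for TBL34, -0.87 to -0.63 for TBL36 and 0.80 to 1.17 for TBL45. Against the SD within groups pooled over both (0.54 for TBL31, 0.34 for TBL33 and 0.39 for TBL34), the value of the run of 2 moved by more for TBL31 (1.49), TBL33 (4.54) and TBL34 (2.68). The variance trend, the run as a block and the filter on dim probes leave these differences as they are by construction. Each gene has 1 probe, so averaging probes gave no value. The run difference of TBL36 turned from -0.36 to 0.28 with median centring and 0.018 with quantile normalization.

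The count of all probes higher in induced cells, 205, was 351 with a variance trend and robust estimation, 318 after quantile normalization, 457 with array weights, 381 with the run as a block, 140 in the run of 4 and 86 at an adjusted p under 0.01. The count of lower probes, 0, was 14, 5, 28, 13 and 3 under the first 5 of these, and 1 without the dimmest 25% of probes or at an adjusted p under 0.1. With 1 array left out there were 56 to 154 higher and 0 lower. After quantile normalization 3292 probes differed between the runs, and after median centring 14871, against 14356 as deposited. The xylan count of 3 was 2 to 4 with 1 array left out. No other TBL symbol was called under any setting. The cause of these shifts was not tested.

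No paired analysis was possible because the labels give the samples no replicate numbers to pair them by. The block used here is the run of array numbers. Background was not estimated, so how far it limits the folds is not known. Of the 5 genes, TBL31, TBL33 and TBL45 had the uninduced signals nearest to the 5th percentile of their arrays.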
